A study of Arabidopsis thaliana with 6 samples.

Results

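The miR169 family was represented by 2 of the 197 miRNA entries in the deposited tables, miR169a-5p and miR169f-3p. Members were taken as every entry in which a joined name carries exactly the number of this family, so miR8169, which shares only its last digits, was not counted. The study sequenced small RNA from whole seedlings of Arabidopsis thaliana aged 14 days and grown on MS medium with 16 h of light and 8 h of dark. It compared the wild type (WT) with the mutant aar2-1, with 3 libraries of each genotype. In yeast and animals, AAR2 proteins help to assemble a subunit of the spliceosome, the machine that removes introns. The labels give the mutant only by its allele name, and no second allele or rescue line was analysed here. The design text calls the replicates biological without saying whether they were grown or harvested apart, so the p-values measure the spread between these libraries.

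A plant miRNA is cut from a hairpin precursor as a duplex of its 5p and 3p arms, and usually the strand of 1 arm is loaded into an ARGONAUTE protein while the other is degraded. In miR169 the 5p strand is the known guide. It directs cleavage of transcripts of the NF-YA genes, which encode the DNA-binding subunit of the CCAAT-box factor NF-Y. In Arabidopsis, members of the family are known to decline under drought and nitrogen starvation, when NF-YA transcripts rise. The 3p strand is its partner in the duplex, often called the passenger, and its level does not give the level of the guide. NF-YA transcripts were not measured in these small RNA libraries.

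The RefSeq annotation of TAIR10.1 holds 14 MIR169 genes with 18 mature names, 14 on the 5p arm and 4 on the 3p arm. These 18 names have 8 distinct sequences. The tables listed 2 of the 18 names, and the other 16 were not analysed here. The family sequences are shown to place both measured strands among their relatives, 5′ to 3′, with the seed (bases 2 to 8) in capitals.
miR169a-5p (measured): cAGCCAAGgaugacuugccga
miR169b-5p and miR169c: cAGCCAAGgaugacuugccgg
miR169d, miR169e, miR169f-5p and miR169g-5p: uGAGCCAAggaugacuugccg
miR169h to miR169n: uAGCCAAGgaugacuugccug
miR169f-3p (measured): gCAAGUUGaccuuggcucugc
miR169g-3p: uCCGGCAAguugaccuuggcu
The seed AGCCAAG of miR169a-5p is shared with miR169b-5p, miR169c and the 7 names from miR169h to miR169n. With positions counted from 1 at the 5′ end of miR169a-5p, the substitution in miR169b-5p is A21G, so a read that ends a base early fits both. The miR169d group carries the same core shifted by 1 base, with 19 bases in common with miR169a-5p. The strand miR169f-3p shares a run of 17 bases with miR169g-3p, but its full 21 bases occur once in the genome. The full miR169a-5p sequence also occurs once. Of the 16 names not analysed here, 14 have sequences with several exact matches in the genome, among them all 13 of the remaining 5p names. The tables do hold 32 entries of other families that join names with the same sequence. The tables used here do not show whether the repeated miR169 sequences had reads, before or after any filter, so every family value below covers the 2 listed strands and not the whole family.

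The measured strands come from opposite arms of different hairpins on chromosome 3. Both hairpins are shown, because each has an arm that was measured and an arm that was not analysed here; capitals mark the annotated arms, the 5p arm first.
MIR169a (TAIR10.1, chr3:4358994-4359219, minus strand): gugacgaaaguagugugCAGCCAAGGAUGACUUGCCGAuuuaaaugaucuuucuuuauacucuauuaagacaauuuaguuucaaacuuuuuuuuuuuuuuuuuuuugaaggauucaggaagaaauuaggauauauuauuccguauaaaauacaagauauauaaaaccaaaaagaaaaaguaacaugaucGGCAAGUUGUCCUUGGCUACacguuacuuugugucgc
MIR169f (TAIR10.1, chr3:4805684-4805850, minus strand): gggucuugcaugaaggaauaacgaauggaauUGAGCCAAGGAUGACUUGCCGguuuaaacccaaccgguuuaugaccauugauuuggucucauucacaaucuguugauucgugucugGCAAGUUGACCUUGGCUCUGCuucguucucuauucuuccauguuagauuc
The mature miR169f-3p lies at chr3:4805713-4805733 and miR169a-5p at chr3:4359182-4359202, both intergenic, in that no other annotated gene on the same strand contains them. In the structure of lowest energy predicted by RNAfold, 16 of the 21 bases of miR169f-3p paired with the miR169f-5p arm. In MIR169a, 18 of the 21 bases of miR169a-5p paired with its 3p arm. The precursor of MIR169f overlaps no other annotated gene, and the nearest, AT3G14390, starts 820 bp away. The precursor of MIR169a overlaps AT3G13404 on the same strand, outside the miR169a-5p arm.

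The 2 strands differ in how they match the NF-YA transcripts. Without gaps, and with G:U pairs counted as mismatches, the best site for miR169a-5p had 3 to 5 mismatches in 8 of the 10 NF-YA genes, always in the 3′ UTR. The exceptions were NF-YA4 with 9 mismatches and NF-YA7 with 7. Of 31464 genes with an annotated mRNA, 57 had a site with at most 5 mismatches, and these included the same 8 NF-YA genes. With at most 4 mismatches there were 8 genes, of which 6 were NF-YA genes. The NF-YA5 gene, whose product acts in drought tolerance, and the NF-YA8 gene had the best sites, with 3 mismatches. NF-YA2 is shown beside them as a site with 5. Capitals mark bases complementary to miR169a-5p, and the sites are written as DNA on the strand of the transcript.
NF-YA5 (TAIR10.1, chr1:20217494-20217514, minus strand): aCGGgAAGTCATCCTTGGCTa
NF-YA8 (TAIR10.1, chr1:6050422-6050442, minus strand): aaGGgAAGTCATCCTTGGCTG
NF-YA2 (TAIR10.1, chr3:1676807-1676827, minus strand): caGGCAAaTCATCtTTGGCTc
The best site of miR169f-3p in an NF-YA transcript had 7 mismatches (NF-YA9), and the best sites in the other 9 genes had 8 or 9. No gene had fewer than 4 mismatches to miR169f-3p, and 5 of the 31464 had 4. A match describes the letters only. Whether a site was cut in these seedlings was not measured.

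Depth was inferred from the values. Within 0.02 reads, every value was a whole multiple of the lowest value above 0 in the same library, and that lowest value was taken as the worth of 1 read. The implied denominators were 7062198 to 11524176 reads per library. Single reads were worth 0.0868 to 0.142 RPM, the unit of reads scaled to a common library size. The summed level of all 197 entries was 46282 to 53127 RPM in WT and 18430 to 27681 RPM in aar2-1, a 2.28-fold difference of the means that forms the background of the results on miR169. In RNA of whole seedlings, fewer cells that make a miRNA and less of it per cell cannot be told apart.

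Of the 2 listed strands, the passenger strand of MIR169f held nearly all reads. In WT, miR169f-3p stood at 9.92, 10.05 and 11.4 RPM in replicates 1 to 3, on 93, 98 and 97 reads. In aar2-1 it stood at 8.85, 5.24 and 4.32 RPM in replicates 1 to 3, on 102, 37 and 38 reads. All mutant libraries lay below all WT libraries, and mutant replicate 1 lay much closer to WT than the other two. It averaged 10.5 ± 0.822 RPM in the wild type and 6.14 ± 2.40 RPM in the mutant (SD, n = 3 each), which is 1.70-fold lower. The spread in the mutant was also wider, at 39.1% of its mean against 7.86% in WT.

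Counting error bears on the separation of the first mutant library. Its exact 95% Poisson interval ran from 7.22 to 10.7 RPM and overlapped those of all 3 WT libraries, the lowest of which began at 8.01 RPM. The intervals of mutant replicates 2 and 3 ended at 7.22 and 5.92 RPM, below the WT intervals. These intervals cover counting error only, since PCR copies are not independent molecules.

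**Figure D1:**
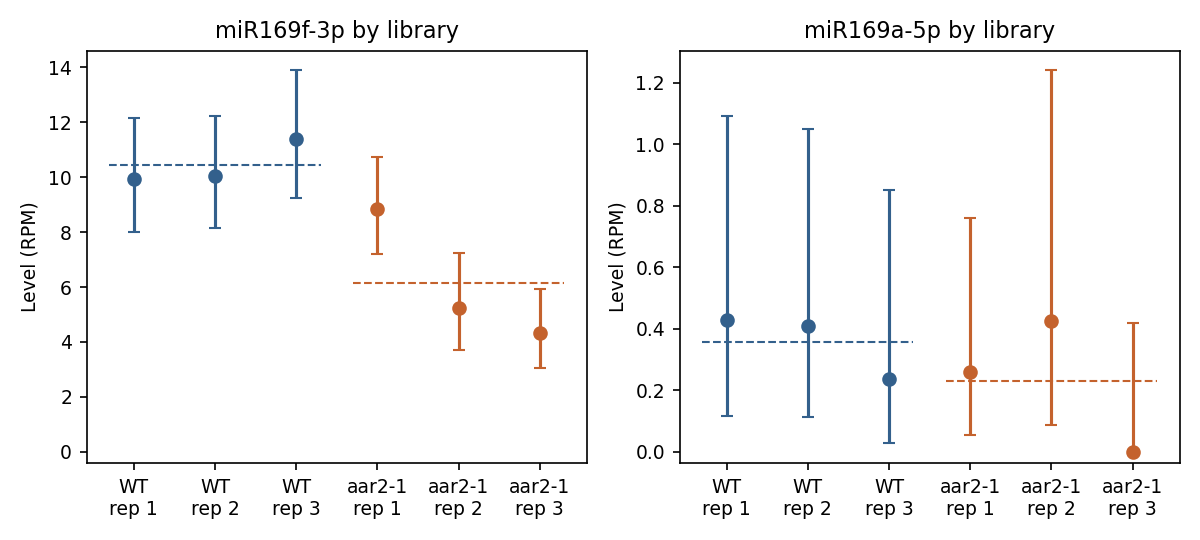
Level in RPM of miR169f-3p (left) and miR169a-5p (right) in each of the 6 libraries; points are deposited values, bars exact 95% Poisson intervals of the implied reads, and dashed lines genotype means. For miR169f-3p the WT values lie between 9.92 and 11.4 RPM and the mutant values between 4.32 and 8.85 RPM, whereas the values of miR169a-5p overlap between genotypes.

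The difference of miR169f-3p did not pass the test across all entries. In limma on log2(RPM + 1), with 131 entries of at least 1 RPM on average, its log2 difference was -0.73 (SE 0.31, 95% interval -1.39 to -0.07), with an adjusted p of 0.0504 and an unadjusted p of 0.0323. Thus 0 of the 2 miR169 entries passed an adjusted p of 0.05, and 1 of them was abundant enough to be tested. Over all 131 tested entries, 61.1% passed as lower in aar2-1, and in 59.5% all 3 mutant values lay below all 3 WT values, as they did for miR169f-3p. The median log2 difference of the tested entries was -0.83, with quartiles of -1.31 and -0.56, and miR169f-3p lay inside them. A more negative difference was found for 79 entries and a less negative one for 51. Without mutant replicate 1 the log2 difference of miR169f-3p was -0.99 and the limma adjusted p 0.00326, with the median of all tested entries at -1.08. Leaving out any other library gave -0.77 to -0.55, with limma adjusted p of 0.0753 to 0.168.

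**Figure D2:**
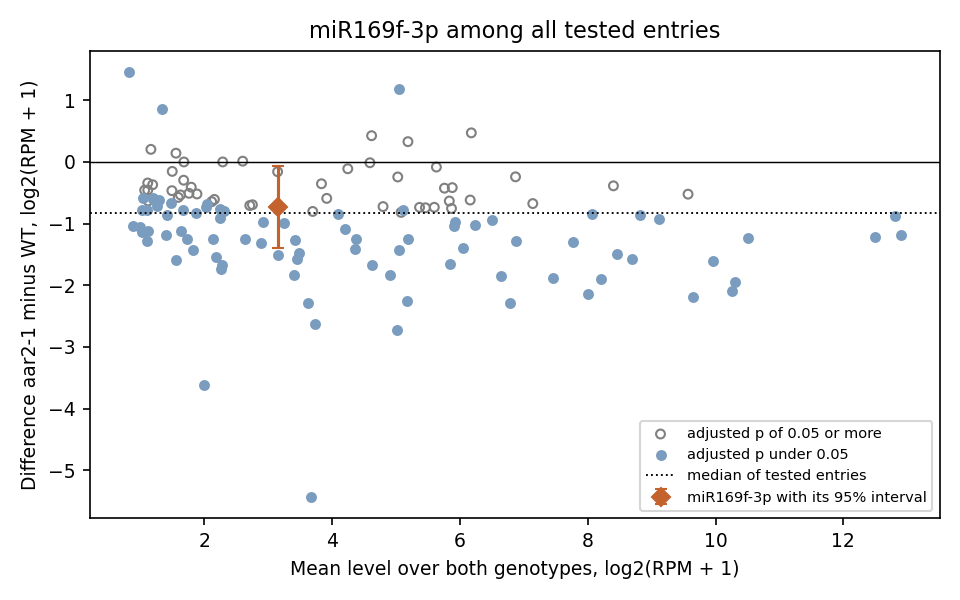
Difference in log2(RPM + 1) between aar2-1 and WT (vertical) against the mean level in log2(RPM + 1) (horizontal) for the 131 tested entries, filled where the limma adjusted p was under 0.05. The diamond for miR169f-3p, with its 95% interval, sits at -0.73, close to the dotted median of -0.83, and its interval from -1.39 to -0.07 spans that median.

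The guide strand miR169a-5p was near the limit of detection in every library. In WT it had 4, 4 and 2 reads in replicates 1 to 3, or 0.427, 0.410 and 0.235 RPM. In aar2-1 it had 3, 3 and 0 reads, or 0.260, 0.425 and 0 RPM, and the absence of reads in replicate 3 allows a level of up to 0.341 RPM when the limit is set at 3 reads, and of up to 0.419 RPM by the exact two-sided 95% Poisson interval. The genotypes overlapped. It averaged 0.357 ± 0.106 RPM in the wild type and 0.228 ± 0.214 RPM in the mutant (SD, n = 3 each; two-sided exact permutation p = 0.60). With reads pooled, 10 in WT against 6 in aar2-1, the mutant-to-WT ratio was 0.605, with an exact 95% interval of 0.181 to 1.84 from counting error alone. A change of miR169a-5p was not detectable at this depth, and a loss or gain within that interval would have been missed.

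The balance of the 2 listed strands showed no detectable difference. The strand miR169f-3p held 95.9%, 96.1% and 98.0% of their summed reads in WT replicates 1 to 3 and 97.1%, 92.5% and 100% in aar2-1. The mutant values spanned those of WT on both sides. Its share averaged 96.6% ± 1.16 in the wild type and 96.5% ± 3.79 in the mutant (SD, n = 3 each), -0.0972 percentage points apart (two-sided exact permutation p = 1.0). The exact Clopper-Pearson 95% interval was widest in mutant replicate 2, from 79.6% to 98.4%, on 40 reads. This share sets an arm of MIR169f against an arm of MIR169a and is no ratio of the arms of a single hairpin. With the other 13 names of the 5p arm not analysed here, it is also no measure of passenger against guide strand in the family.

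Summed over the 2 listed strands, miR169 passed the test by a small margin. The sum stood at 10.4, 10.5 and 11.6 RPM in WT replicates 1 to 3 and at 9.11, 5.66 and 4.32 RPM in aar2-1. It averaged 10.8 ± 0.716 and 6.36 ± 2.47 RPM (SD, n = 3 each). In limma over 76 tested families the log2 difference was -0.73 (SE 0.29, 95% interval -1.36 to -0.10) with an adjusted p of 0.0421, as deposited. It was positive under each of the 3 scalings meant to take out a shift shared by the libraries. None of these passed (limma adjusted p 0.216 to 0.370), and each 95% interval spanned 0. The median of all tested families was then also positive, at 0.10 to 0.24. As deposited, 59.2% of the 76 families passed as lower, and 47 had a more negative log2 difference than miR169. The call was lost when any WT library, mutant replicate 2 or mutant replicate 3 was left out. A smaller group also weakens the test. The log2 difference and limma adjusted p were -0.76 and 0.125 without WT replicate 1, -0.75 and 0.0677 without WT replicate 2, and -0.68 and 0.148 without WT replicate 3. They were -0.69 and 0.134 without mutant replicate 2 and -0.52 and 0.120 without mutant replicate 3. Without mutant replicate 1 they were -0.99 and 0.00259.

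Measured against the other miRNAs, miR169f-3p had a larger mean share in aar2-1 than in WT, a difference that did not pass in limma. Its share of the summed miRNA level was 0.0187%, 0.0217% and 0.0216% in WT replicates 1 to 3 and 0.0320%, 0.0252% and 0.0234% in aar2-1. All mutant shares lay above all WT shares, and mutant replicate 1 was the highest. On this scale the median log2 difference of the 131 tested entries was also positive, at 0.09, beside 0.33 for miR169f-3p (limma adjusted p 0.293). How many other entries separated the genotypes in this way was not counted. The share averaged 0.0207% ± 0.00172 and 0.0269% ± 0.00451 (SD, n = 3 each), 1.30-fold higher in aar2-1 (two-sided exact permutation p = 0.10, the smallest that 3 libraries against 3 allow). Its rank by level among the 197 entries was 71 to 76 in WT and 66 to 67 in aar2-1.

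The mutant libraries ranked alike for miR169f-3p and for the miRNA total. Replicates 1, 2 and 3 kept 0.846, 0.501 and 0.413 of the WT mean of miR169f-3p, and 0.546, 0.410 and 0.363 of the WT mean of the total. In each mutant library miR169f-3p thus retained more of its WT level than the total did, with the widest gap in replicate 1. The total is a sum in which abundant entries weigh most, and its mean was 2.28-fold lower in aar2-1. The median log2 difference of the 131 tested entries was -0.83, close to the -0.73 of miR169f-3p. As a share of the total, the median tested entry stood at 0.09, so retaining more than the total was common among the entries. The exact number that did so was not counted. The part of the library-wide shift in the result on miR169 was not tested beyond the scalings given here.

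**Figure D3:**
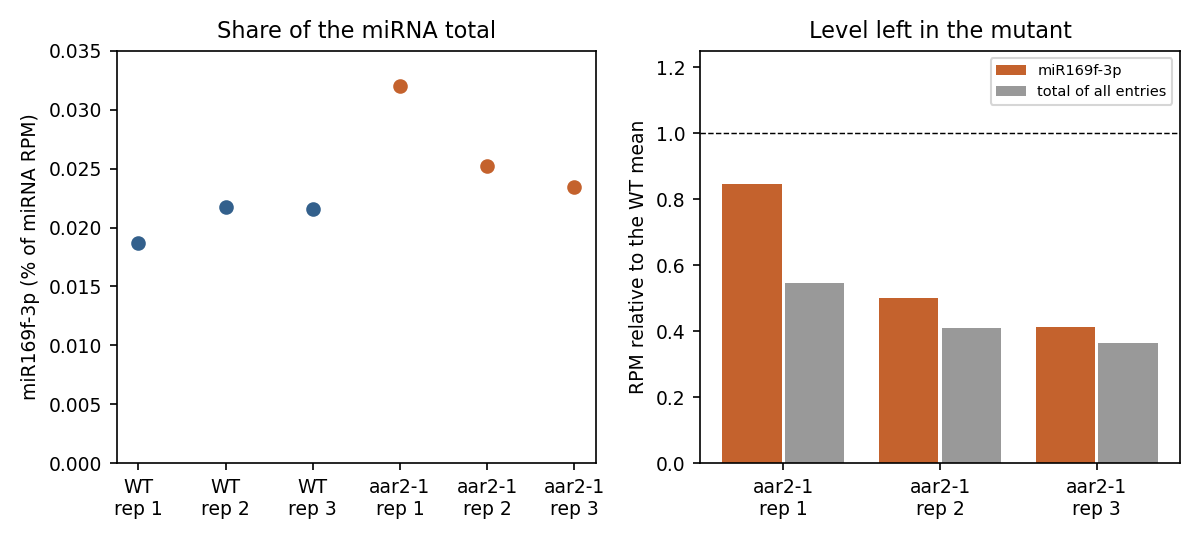
Left, miR169f-3p as a percentage of the summed RPM of all 197 entries in each library, from 0.0187% to 0.0217% in WT (blue) and from 0.0234% to 0.0320% in aar2-1 (orange). Right, level in each mutant library relative to the WT mean for miR169f-3p and for the summed total, where the bar of miR169f-3p is the taller in every library. As a share of the total, the median log2 difference of all tested entries was also positive, at 0.09.

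Scaling therefore set the sign of the difference. The log2 difference of miR169f-3p was 0.23 (95% interval -0.26 to 0.73, limma adjusted p 0.508) after division by a median-ratio factor, which moved the median of all tested entries by 0.85. As a share of the miRNA total it was 0.33 (-0.16 to 0.82, limma adjusted p 0.293), with a shift of the median by 0.91. Centred on the library median it was 0.61 (0.11 to 1.11, limma adjusted p 0.0402), with a shift by 1.34. Centring left the median tested entry at 0.52, near miR169f-3p, against 0.02 with the median-ratio factor and 0.09 as a share. The deposited RPM values place miR169f-3p lower in the mutant, and the values relative to the other miRNAs place it level or higher. On each scale the median tested entry had the same sign as miR169f-3p.

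**Figure D4:**
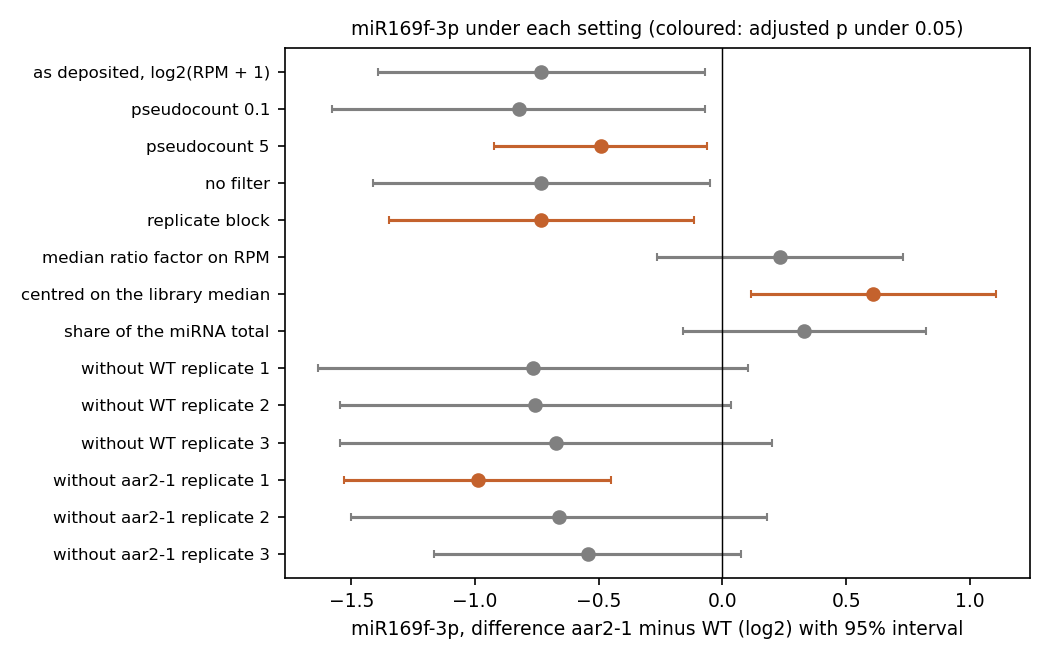
Log2 difference of miR169f-3p between aar2-1 and WT, with its 95% interval, under each setting of the limma fit; colour marks an adjusted p under 0.05. The fits on RPM as deposited lie between -0.99 and -0.49, and the 3 rescaled fits lie at 0.23, 0.33 and 0.61. In these 3 the median of all tested entries was 0.02, 0.09 and 0.52.

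The families whose profiles over the 6 libraries were most like that of miR169 were miR823, miR156 and miR158. Likeness was the Euclidean distance between profiles of log2(RPM + 1), each less its own mean, which was 0.243, 0.268 and 0.341 for these families against a median of 0.955 over the 75 other tested families. The miR823 family, which targets the DNA methyltransferase gene CMT3, had 3.87 ± 0.662 RPM in the wild type and 1.85 ± 1.03 RPM in the mutant. The miR156 family, which targets SPL genes and holds plants in the juvenile phase, had 906 ± 73.7 and 498 ± 150 RPM. The miR158 family had 9846 ± 1122 and 5453 ± 1401 RPM (SD, n = 3 each). All 3 had their highest mutant value in replicate 1 and their lowest in replicate 3, as miR169 did. They were chosen by these same values, so this likeness is no separate result, and the miRNA total had the same order.

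A list of 16 other families known to respond to nitrogen supply in Arabidopsis gives a second setting for miR169. The list was chosen with earlier results of these data known, so its comparison with all families is no independent result. The tables held 14 of the 16 families, and 12 reached 1 RPM on average. In limma, 8 of the 12 passed as lower and 0 as higher (0 higher also at an unadjusted p of 0.05), beside 59.2% lower and 3.95% higher over all families. Their median log2 difference was -1.54, against -0.86 over all 76 families, and 9 of the 12 were more negative than miR169. The families miR167, miR171, miR395, miR398, miR399, miR408, miR827 and miR846 passed. The abundant miR398 family, which targets copper/zinc superoxide dismutase genes, fell from 1872 ± 429 to 637 ± 151 RPM, a log2 difference of -1.56 (limma adjusted p 3.79e-04). The miR167 family, which targets the auxin response factors ARF6 and ARF8, fell from 767 ± 227 to 289 ± 171 RPM (SD, n = 3 each), a log2 difference of -1.53 (limma adjusted p 0.00726). These calls hold for RPM as deposited: miR398, miR167 and miR171 passed under none of the 3 scalings.

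The most negative values on the list were those of miR827, miR399 and miR846. The miR827 family, which targets the ubiquitin ligase gene NLA, had a log2 difference of -2.73, and the miR399 family, which targets PHO2, one of -2.29 (limma adjusted p 7.48e-05 and 1.12e-04). The value of miR846 was -2.27, within its SE of 0.29 of that of miR399. The families that did not pass were miR160 at -0.82, miR857 at -0.64, miR397 at -0.57 and miR393 at -0.34 (limma adjusted p 0.0665, 0.0950, 0.228 and 0.277). Of these, miR160 targets auxin response factor genes, miR857 and miR397 target laccase genes, and miR393 targets auxin receptor genes. Under each of the 3 scalings miR395, miR399, miR408, miR827 and miR846 were still lower and miR393 was higher. That is 5 lower and 1 higher of the 12 tested, against 8 and 0 as deposited. Among called families only, the lower share went from 100% to 83.3%. Of all 76 tested families, called or not, 23.7% were then lower and 18.4% higher with the median-ratio factor. These percentages were 18.4% and 22.4% after centring, and 22.4% and 19.7% as a share of the miRNA total.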

How the data were processed

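The authors deposited a table per library with 197 miRNA entries, in RPM; the labels name no unit, which was read from the step between values. The submitters' processing notes name cutadapt, Bowtie and TAIR10, without versions or roles; how reads with several matches were handled and which reads form the denominator are not given in the sources used here. RPM values were used as deposited, and family values are sums of entries. limma 3.58.1 (R 4.3.3) was run on log2(RPM + 1) with the 2 genotypes as groups and a trended variance, for features with a mean of at least 1 RPM. Tests were two-sided, with Benjamini-Hochberg adjustment over all tested features. The fit was checked on simulated reads with larger changes than that of miR169, equal spread in both genotypes and no library-wide shift. That check therefore does not cover calls near the threshold in these data. The pseudocount understates changes of low entries. Single values were compared by exact permutation tests. Every miR169 entry is named, with the 3 nearest families and, from the nitrogen list, the 2 of largest mean, the 2 of largest decrease and those that did not pass as lower. Sequences come from the RefSeq TAIR10.1 reference, folded with RNAfold 2.7.2; both entries matched by name. Python 3.11.15, scipy 1.17.1 and matplotlib 3.10.9 were used. The members and lists were chosen with earlier results of these data known.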

Additional observations from a re-analysis of the deposited data

How the results depend on the processing

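The log2 difference of the miR169 family, -0.73 as deposited, kept its sign but not its call with a pseudocount of 0.1 RPM (-0.82, limma adjusted p 0.0548) and with no filter (-0.73, limma adjusted p 0.0684), and kept its call with a pseudocount of 5 RPM (-0.50). It was 0.32 with the median-ratio factor, 0.37 after centring and 0.33 as a share of the miRNA total (limma adjusted p 0.370, 0.216 and 0.304). The share was a scaling chosen after seeing the data. For miR169f-3p the values were 0.23, 0.61 and 0.33. Leaving out each library gave -0.99 to -0.52 for the family. The number of miR169 entries past the threshold, 0, became 1 with a pseudocount of 5 RPM, after centring (there as higher) and with the replicate block, and ran from 0 to 1 when libraries were left out. The entry was miR169f-3p, with a limma adjusted p of 0.0504 as deposited. The share of all entries called under these settings was not counted. With the replicate number as a block, the family difference was -0.73 (limma adjusted p 0.0398) and that of miR169f-3p -0.73 (limma adjusted p 0.0299). The deviations of same-numbered libraries had correlations of 0.49, 0.05 and -0.15 for replicates 1 to 3, not above 0.1 in every pair, and the labels name no shared growth or harvest, so the numbers were not used as pairs. The arm difference, -0.0972 points for 3p and 0.0972 for 5p, also with the replicate block, was 0.0770 and -0.0770 with reads pooled. It ran from -1.82 to 1.93 for 3p and from -1.93 to 1.82 for 5p when libraries were left out. The cause of these changes was not tested. The nitrogen list gave 6 to 12 calls among 10 to 14 tested families, against 8 of 12 as deposited. The 6 calls, 5 lower and 1 higher, came with the 3 scalings. The 12 calls, all lower, came without mutant replicate 1, where the median of all tested families was -1.13 against -0.86 as deposited. The share of all families called was counted only as deposited and under the scalings.

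A minimum of 10 RPM gave no value for miR169, nor did the makeup among entries of at least 1 RPM, where a single entry remains. The edgeR and DESeq2 alternatives were not run, because the tables hold RPM and too few low values to pass implied reads to count models. Implied reads were used for read numbers, pooled ratios and shares, and counting intervals. Fewer than 5 reads of miR169a-5p per library limit any statement on the guide strand.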
